A study of Mus musculus with 36 samples.

Results

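Molecular chaperones and heat shock proteins were followed in mouse embryonic stem cells as they left the undifferentiated state. The members are the genes whose single platform symbol begins with Hsp, fits the J protein names (Dnaja, Dnajb, Dnajc), is one of the chaperonin subunits Cct2 to Cct8, is one of Bag1 to Bag6, or begins with Hsf. The rule found 83 genes among 13674 with a single symbol, each represented by the brightest of its probe sets, 54 on chip A, and on chip B 29. The brightness filter was passed by 74, which were tested among 14900 probe sets. The 9 below it (Hspa1l, Dnajc18, Dnajc25, Dnajb5, Dnajb7, Dnajb8, Hsf4, Hspb1 and Hspb9) have no test. The dimmest tested probe set had a mean signal of 23.9 on chip A, and for chip B this level was 43.6. Dnajb3 and Dnajc11 lay below that level in every control and passed it through their brighter arms. Where a whole group lies below it, a call is given as a bound against that level and not as an exact difference. Hspg2, which encodes the matrix proteoglycan perlecan, and Hspb11, which encodes a protein of intraflagellar transport, fit the name rule and are no chaperones. Probe sets of 11 tested members carry a suffix that marks sequence shared with other transcripts or a reduced set of probes (Bag2, Bag3, Bag5, Bag6, Cct6a, Dnajb2, Dnajb3, Dnajc8, Dnajc15, Hspbp1 and Hspb2), so that their signals can include other transcripts.

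The cells were Oct4:eGFP embryonic stem cells, which carry green fluorescent protein as a reporter of Oct4, and 18 RNA samples were each hybridised to both array types. The 3 control samples grew with leukaemia inhibitory factor (LIF) at 1000 units/mL, which holds these cells undifferentiated, were harvested 2 days after plating, and were sorted into the high gate (replicates 1 and 2) and the medium gate of reporter fluorescence. Cells grown without LIF were taken at day 1 (high replicates 1 and 2, medium, low), day 3 (high, medium, low) and day 5 (high, medium, low). Cells grown without LIF and with 0.1 uM retinoic acid (RA) were taken at day 1 (high, medium, low) and day 2 (medium, low). All cells were on gelatin during the experiment, had been kept on embryonic fibroblasts before it, and gave RNA that was amplified in 2 rounds. Time in culture therefore differed between control and every other arm except day 2 with RA, since days are counted from plating. Whether samples of an arm are separate cultures is not stated in the labels, so the p-values rest on the spread among these samples, which may be technical. Signals are MAS5 intensities on a linear scale, comparable between samples for 1 probe set and not between probe sets, and values below are given in the order high, medium, low (high 1, high 2, medium for control). In bulk samples fewer cells of a type and less RNA per cell cannot be told apart.

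Per the run records there were 4 scan days. Day 5, RA day 2 and the other day 1 libraries without LIF share a scan day, day 3 and RA day 1 share another, and the second day 1 high library shares one with the second control high library. The first control high and the control medium library were scanned on the remaining day, with no sample of another arm. Differences from control can therefore in large part not be told apart from scan day. That second day 1 high library stood apart from the other 3 of its arm in the summed signal of 11 markers of undifferentiated cells. This sum was 12675 there and 21053 to 22041 in the other 3. It was 12618 to 14227 at day 1 with RA and 11823 to 13290 at day 3 without LIF. Which arm the library is most like was not tested, and results that rest on it are given with and without it. The median signal of the arrays ran from 37.7 to 48.8 on chip A and from 65.5 to 76.3 on chip B. The log2 ratio of 3' to 5' Actb signal on chip A, a sign of RNA length, was 1.10 to 1.34 in control. Without LIF it was 0.98 to 1.14 at day 1, 0.81 to 1.14 at day 3 and 0.83 to 0.94 at day 5. With RA it was 1.26 to 1.44 at day 1, the highest range of all arms, and 0.79 to 0.86 at day 2. The part of this ratio in the results below was not tested.

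Chaperones bind proteins that are not yet folded and release them in cycles driven by ATP. Hsp70 proteins (Hspa) take clients that J proteins (Dnaj) bring, and Hsp110 and Bag proteins exchange their nucleotide. Hsp90 acts late on kinases and steroid receptors, the Cct ring folds actin and tubulin in the cytosol, and Hspd1 with Hspe1 forms the ring of the mitochondrion. Small heat shock proteins (Hspb) hold damaged proteins without ATP, and Bag3 links Hspb8 to Hsp70 for the clearance of damaged cytoskeletal proteins. Heat shock factors (Hsf) bind repeats of GAA and TTC in promoters of many of these genes, and the endoplasmic reticulum has its own set, induced when unfolded protein gathers there. Embryonic stem cells are known for high levels of many cytosolic and mitochondrial chaperones.

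A difference was called where the adjusted p of the fit (limma, Benjamini-Hochberg within each chip) was under 0.05. Over 12 comparisons, 39 of the 74 tested members were called at least once and 35 never, and 5 were called higher in one comparison and lower in another. The matching counts for all probe sets were not taken, so these counts do not set the members apart. Against control, 1 member was higher and 1 lower at day 1 without LIF, 3 were higher and 3 lower at day 3, and 11 were higher and 12 lower at day 5. Of all probe sets tested, 1.15% were higher and 0.913% lower at day 1, 6.53% and 4.99% at day 3, and 15.4% and 13.8% at day 5. With RA, 8 members were higher and 7 lower than control at day 1, where 10.7% of all probe sets were higher and 8.85% lower. At day 2 with RA 10 members were higher and 6 lower, where 8.05% were higher and 7.17% lower. The members as a whole thus moved about as often as other probe sets, and their median log2 difference from control was 0.01, 0.01 and -0.02 at days 1, 3 and 5, beside 0.00, 0.06 and 0.01 for all tested probe sets. Without Hspg2 and Hspb11, the called counts at day 5 were 10 higher and 12 lower. Dnajb3 and Dnajc11, which passed the filter through their brighter arms, are among the higher members at day 5 and in both RA arms.

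**Figure D1:**
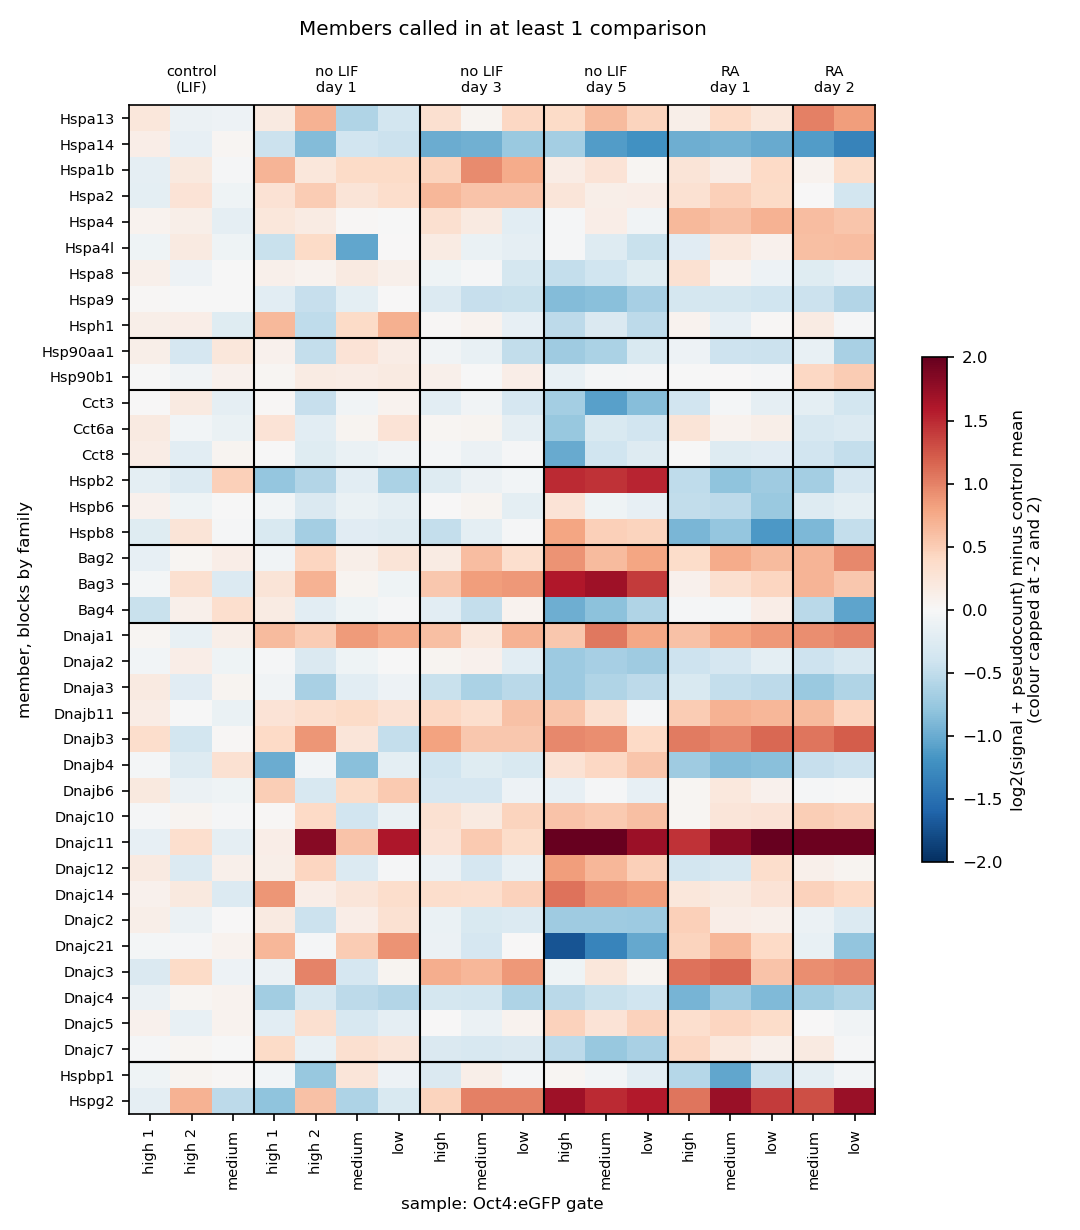
The log2 difference of each sample from the control mean, on the log2(signal + pseudocount) scale, for the 39 members called at least once; rows are members in blocks by family and columns are the 18 samples by arm and gate. Day 5 without LIF holds the reddest cells of Hspb2 and Bag3 and the bluest of Dnajc21, in each of the 3 gates.

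Without the second day 1 high library, the same fits called 3 members at day 1, 10 at day 3 and 27 at day 5 without LIF, and 19 at day 1 and 18 at day 2 with RA, all against control. The shares of all probe sets called in these fits, in either direction, were 3.17%, 15.2%, 32.3%, 23% and 18.1%. Members that passed only without it included Hsph1 (0.62 at day 1), Dnajc3 (0.76 at day 3) and Hsp90aa1 (-0.53 at day 5), each as a log2 difference from control.

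The comparisons of day 5 without LIF with control and with day 1 held 48 of the 106 calls of members. They also had the largest shares of all probe sets called, 15.4% higher and 13.8% lower against control and 15.3% and 12.6% against day 1. At day 5 the small heat shock proteins Hspb2 and Hspb8 and their partner Bag3 were high, and the mitochondrial Hsp70 Hspa9, the chaperonin subunit Cct3 and the J proteins Dnaja2, Dnajc2, Dnajc7 and Dnajc21 were low. Among all J proteins as many were higher as lower, with Dnajb3 and Dnajc11, which passed the filter through their brighter arms, among the higher. To set time apart from scan day, the 3 day 5 libraries were compared with the day 1 libraries of the same gates, all scanned on 1 day and without the second day 1 high library. Here 11 members were higher and 14 lower at day 5, beside 15.3% of all probe sets higher and 12.6% lower. Of the 11 higher members, 9 were also among the 11 higher than control, and of the 14 lower members 10 were also among the 12 lower than control. Both comparisons use the same day 5 libraries. With the second day 1 high library included, which was scanned on another day, 11 members were called, where 15.3% of all probe sets were called in either direction. They were Hspb2, Hspb8, Bag3 and Hspg2 among the higher and Hspa9, Cct3, Dnaja2, Dnajc2, Dnajc7, Dnajc21 and Bag4 among the lower, all of them among the 25. When each array was centred on its median, the calls were 9 higher and 16 lower against control and 9 higher and 21 lower against day 1.

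Hspb2, a small heat shock protein best known from muscle, had signals of 592, 572 and 603 at day 5. They were 120.3, 178 and 132 in the day 1 libraries of the same gates and 180.4, 171 and 289 in control. The 3 gates at day 5 were nearly equal and lay above each of the other 15 samples. The difference was 2.03 on the log2 scale against day 1 (SE 0.16, 4.08-fold, adjusted p = 0.000774, 3 against 3 samples) and 1.43 against control (SE 0.19, adjusted p = 5.82e-05). The probe set of Hspb2 carries the suffix for shared sequence. Its neighbour in the genome Cryab, another small heat shock protein, which the name rule does not take, moved the same way. Its signals were 96.7, 78.4 and 91.9 at day 5 and 37.4, 33.1 and 28.1 in the day 1 libraries, a log2 difference of 1.34 (SE 0.14, adjusted p = 0.00198).

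Bag3, the adaptor that joins Hsp70 to small heat shock proteins, had signals of 324, 348 and 283 at day 5. In the day 1 libraries of the same gates they were 126, 109 and 97.7, and at day 3 they were 153, 189 and 194. Day 3 lay between the others without overlap with control (102, 130.4 and 85.2) or with day 5. The log2 difference from day 1 was 1.49 (SE 0.13, adjusted p = 0.00108) and from control 1.61 (SE 0.21, adjusted p = 5.27e-05), and at day 3 it was 0.79 from control (SE 0.21, adjusted p = 0.0218). A second probe set for Bag3 gave 1.24 and 1.25 for day 5 against day 1 and control, both past the test.

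Hspb8, the small heat shock protein that binds Bag3, had signals of 286, 231 and 226 at day 5, above 132, 139.7 and 137 in the matched day 1 libraries. The day 5 values lay above those of all other samples, of which the highest was 197 in a control. The difference from day 1 was 0.83 (log2, SE 0.14, adjusted p = 0.0088). Against control it was 0.54 (SE 0.20, adjusted p = 0.0437), and this call was lost in 10 of the 18 fits that left out 1 library and turned to -0.10 with scan day as a fixed block. Hspb6, Hspb7 and Hspb11, the other tested members named Hspb, were not called at day 5.

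Among the other Bag proteins, Bag2, an inhibitor of the ubiquitin ligase partner of Hsp70, had signals of 356, 296 and 329.7 at day 5 against 179, 204 and 227 in the matched day 1 libraries (log2 difference 0.68, SE 0.15, adjusted p = 0.0196). A second Bag2 probe set rose by 1.11. Bag4, which silences death receptor signalling, had signals of 503, 559.9 and 654 against 1122, 937 and 987 and fell by 0.82 (SE 0.18, adjusted p = 0.0337). Both groups were apart in these genes, but the Bag4 call was lost in each of the 6 fits that left out 1 library. The 2 genes moved in opposite directions within 1 family.

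**Figure D2:**
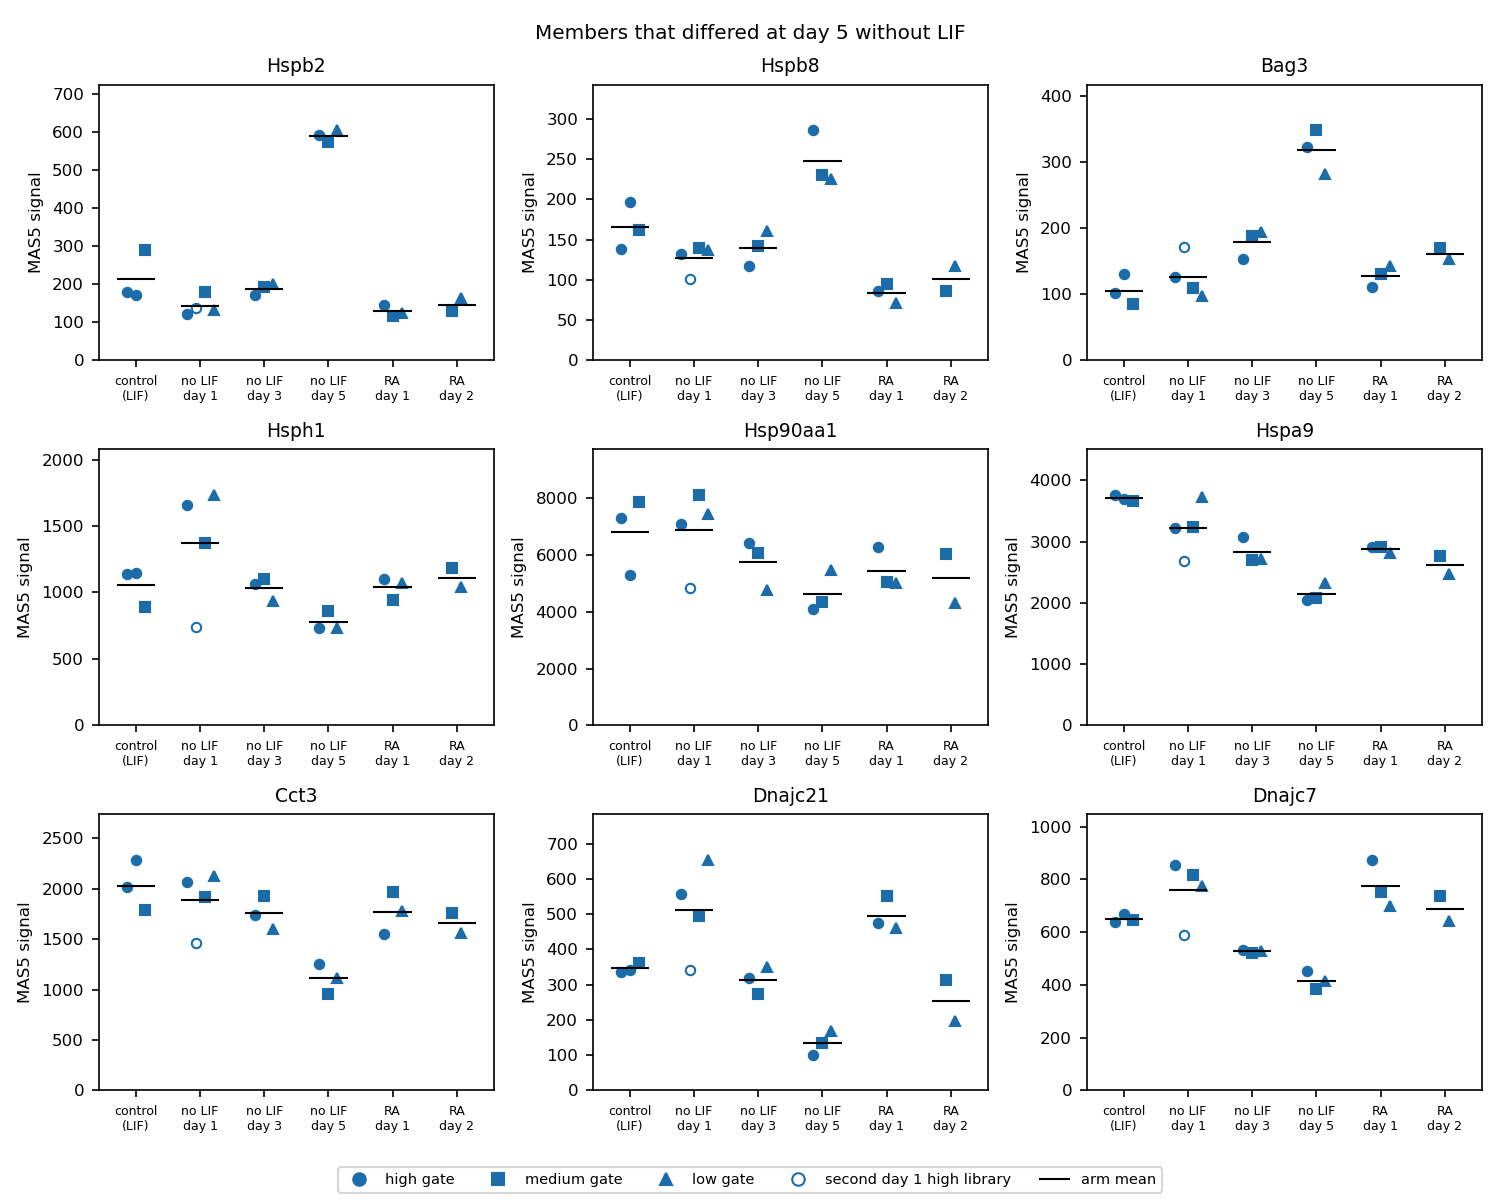
MAS5 signal (linear, from 0) in each of the 18 samples for 9 members, by arm, with gates as symbols and the arm mean as a line; the open circle is the second day 1 high library. The mean of day 5 without LIF is the highest of the 6 arms in the top row and the lowest in the other rows, and the open circle lies below the other day 1 points for Hsph1, Hsp90aa1, Hspa9, Cct3, Dnajc21 and Dnajc7.

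In the Hsp70 and Hsp110 family, 13 members were tested, and 4 (30.8%) were lower and none higher at day 5 than at day 1. Of all probe sets 12.6% were lower and 15.3% higher there. With so few members the count is a description. Hsph1, the Hsp110 protein that resets Hsp70, had signals of 730.2, 862 and 734 at day 5 and 1658, 1375 and 1730.0 in the matched day 1 libraries. Control (1137, 1149 and 890.3) lay between these groups, and the second day 1 high library, at 738, lay within the day 5 range. The log2 difference was -1.03 (SE 0.16, adjusted p = 0.00656) in the matched libraries, and -0.81 (SE 0.30, adjusted p = 0.103) with that library. Against control it was -0.46 and did not pass (adjusted p = 0.185). Hspa9, the Hsp70 of the mitochondrial matrix, stood at 3754, 3704 and 3669 in the controls and at 2042, 2075 and 2327 at day 5. This was a difference of -0.81 (SE 0.14, adjusted p = 0.000371), with no overlap, and Hspa9 also fell relative to day 1 (-0.66, adjusted p = 0.0112).

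Hspa14, an Hsp70 relative bound to ribosomes, was lower than control in each arm but day 1 without LIF. Its signals were 567, 463 and 530.5 in control, 384, 282, 397 and 382 (high 1, high 2, medium, low) at day 1, 258, 264 and 307 at day 3, 321, 237 and 222 at day 5, and 237 and 203 at day 2 with RA. No sample of another arm reached the controls. The log2 differences from control were -0.52 (SE 0.16, adjusted p = 0.0978) at day 1, -0.90 (SE 0.18, adjusted p = 0.00453) at day 3, -1.0 (SE 0.18, adjusted p = 0.000565) at day 5, -0.97 (SE 0.18, adjusted p = 0.00172) at day 1 with RA and -1.22 (SE 0.21, adjusted p = 0.00133) at day 2 with RA. The fall from day 1 to day 5 (-0.59) was -0.47 with all 4 day 1 libraries and then did not pass (adjusted p = 0.176). The day 3 call was lost with scan day as a random block, where no member was called at day 3.

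Hspa8, the constitutive Hsp70 of the cytosol, had signals of 2058, 2175 and 2414 at day 5 and 3065, 3219 and 3056 in the matched day 1 libraries, and fell by 0.49 (SE 0.13, adjusted p = 0.034). Its call was lost in each of the 6 fits without 1 library, and with the second day 1 high library (adjusted p = 0.0562). Hsp90aa1, the inducible Hsp90 of the cytosol, had signals of 4095, 4348 and 5471 at day 5 against 7112, 8104 and 7459. These groups did not overlap, and the difference was -0.71 (SE 0.15, adjusted p = 0.0153). The second day 1 high library had 4841, within the day 5 range, and with it the difference was -0.61 (SE 0.20, adjusted p = 0.0708). Against control the value for Hsp90aa1 was -0.56 (adjusted p = 0.0657). Hsp90b1, its relative in the endoplasmic reticulum, gave -0.19 against day 1 (adjusted p = 0.274).

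The inducible Hsp70 genes Hspa1a and Hspa1b and the J protein Dnajb1 were not called at day 5 against either baseline. Hspa1a and Hspa1b are near-identical copies, so that their signals may include each other. At day 5 Hspa1b had signals of 71.3, 78.2 and 65.9 beside 56, 74 and 63.1 in control (log2 difference 0.13, 95% interval ± 0.37, adjusted p = 0.601). Hspa1a had 63.8, 75.8 and 60.3 beside 57.3, 76.9 and 88.9 (-0.13, 95% interval ± 0.39, adjusted p = 0.615). Dnajb1 gave 0.21 (adjusted p = 0.422), and Hsf2, the only tested heat shock factor, gave -0.43 (adjusted p = 0.163). These intervals span small changes in both directions.

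Of the 10 tested chaperonin subunits, 2 (20%) were lower and none higher at day 5 than at day 1, and 3 (30%) were lower than control. Of all probe sets 12.6% were lower and 15.3% higher than at day 1, and 13.8% lower and 15.4% higher than control. With so few members these counts are a description. Cct3, a subunit of the cytosolic ring, had signals of 1257, 954 and 1118 at day 5 against 2063, 1915 and 2129.6 at day 1. Each day 5 value was below that of every other sample. The difference was -0.88 (SE 0.13, adjusted p = 0.00587) from day 1 and -0.87 (SE 0.18, adjusted p = 0.00172) from control, and 2 further Cct3 probe sets fell in both comparisons. With all 4 day 1 libraries Cct3 still passed (-0.76, adjusted p = 0.0381). Cct6a fell by 0.68 (SE 0.17, adjusted p = 0.027) from day 1, a call lost in each of the 6 fits without 1 library, and by 0.50 from control (adjusted p = 0.0351). Cct8 fell by 0.59 from control (SE 0.18, adjusted p = 0.0165), a call lost with scan day as a random or fixed block. The remaining subunits of the ring were not called, with values of -0.26 for Cct5, -0.27 for Cct4, -0.32 for Cct7, -0.11 for Cct2 and 0.05 for the dim Cct6b against control. The mitochondrial pair did not pass, at -0.26 for Hspd1 (adjusted p = 0.371) and -0.40 for Hspe1 (adjusted p = 0.0705) against day 1.

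Of 35 tested J proteins, 6 were higher and 6 lower at day 5 than at day 1, 17.1% each way, a share near that of all probe sets (15.3% and 12.6%). The 6 higher ones include Dnajb3 and Dnajc11, which passed the filter through their brighter arms. Dnajc21, a factor of ribosome maturation in human cells, had signals of 99.7, 135 and 168 at day 5. They were 556, 495 and 652 in the matched day 1 libraries, 336, 342 and 363 in control, and 312 and 197 at day 2 with RA. No other sample was as low as the day 5 libraries. The matched day 1 libraries lay above control, and the second day 1 high library, at 343, lay within its range. The log2 difference from day 1 was -2.05 (SE 0.18, 4.13-fold lower, adjusted p = 0.00484), and a second probe set gave -1.91. With all 4 day 1 libraries it was -1.94 (adjusted p = 0.00643). Dnajc2, which in human cells binds ribosomes together with Hspa14 and guides new chains to Hsp70, had signals of 635, 638 and 631 at day 5 against 1184, 1151 and 1284. Its 3 day 5 values were close to each other and below all other samples (-0.92, SE 0.13, adjusted p = 0.0043), and a second probe set fell by 0.80.

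Dnajc7, which handles clients between Hsp70 and Hsp90, had signals of 452, 383 and 415 at day 5 against 855, 817 and 775 (log2 difference -0.96, SE 0.13, adjusted p = 0.00388). At day 3 its 3 signals (534, 520.0 and 530.0) were below those of control (638, 669 and 647), and the difference was not called. Dnaja2, a general Hsp70 partner of the cytosol, had 193, 200.2 and 194 at day 5 against 317, 301 and 319, and fell by 0.66 (SE 0.13, adjusted p = 0.0115). Dnaja3, the J protein of the mitochondrial matrix that works with Hspa9, fell by 0.49 (SE 0.13, adjusted p = 0.037) from day 1 and by 0.64 (SE 0.17, adjusted p = 0.00815) from control. Dnajb6, which holds back protein aggregation, fell by 0.59 from day 1 (SE 0.13, adjusted p = 0.0206) and was -0.17 from control (adjusted p = 0.525). The second day 1 high library had a Dnajb6 signal of 995, below the day 5 values of 1109, 1222 and 1107, and with it the difference was -0.43 (adjusted p = 0.233). For Dnaja3 it was -0.39 (adjusted p = 0.186) with that library. The Dnaja3 and Dnajb6 calls against day 1 were lost in all 6 fits without 1 library.

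Among the J proteins that were higher at day 5, Dnajb4 had signals of 261, 285 and 316 against 103, 116 and 184 at day 1 (log2 difference 1.09, SE 0.18, adjusted p = 0.0176). Control (206, 176 and 263) was close to day 5, and the value against it did not pass. With all 4 day 1 libraries neither Dnajb4 (adjusted p = 0.078) nor any other of the 6 higher J proteins passed. Dnajc10, a disulfide reductase of the endoplasmic reticulum, had 549.5, 529 and 558 against 371, 280.1 and 333 (0.74, SE 0.14, adjusted p = 0.0109), and it was above control as well. Dnajc11, a mitochondrial inner membrane organiser, had signals of 15.2, 23.2 and 15 in control, all below the level of the filter. At day 5 they were 90.1, 110.0 and 66.1, at least 3.26-fold higher. Its p-values are not printed, since it passed the filter through such brighter arms. It was also at least 2.74-fold higher at day 1 and at least 2.98-fold higher at day 2 with RA. Dnajc14 was higher at day 5 than in control (0.98, SE 0.18, adjusted p = 0.00182) and was not called against day 1. Dnajc12 (0.72), Dnajc5 (0.63) and Dnajb3, which was at least 1.21-fold higher than in day 1 libraries below the filter's level, completed the higher J proteins against day 1 with Dnajc11 (1.30), and a Dnajc5 probe set on chip A gave -0.03.

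**Figure D3:**
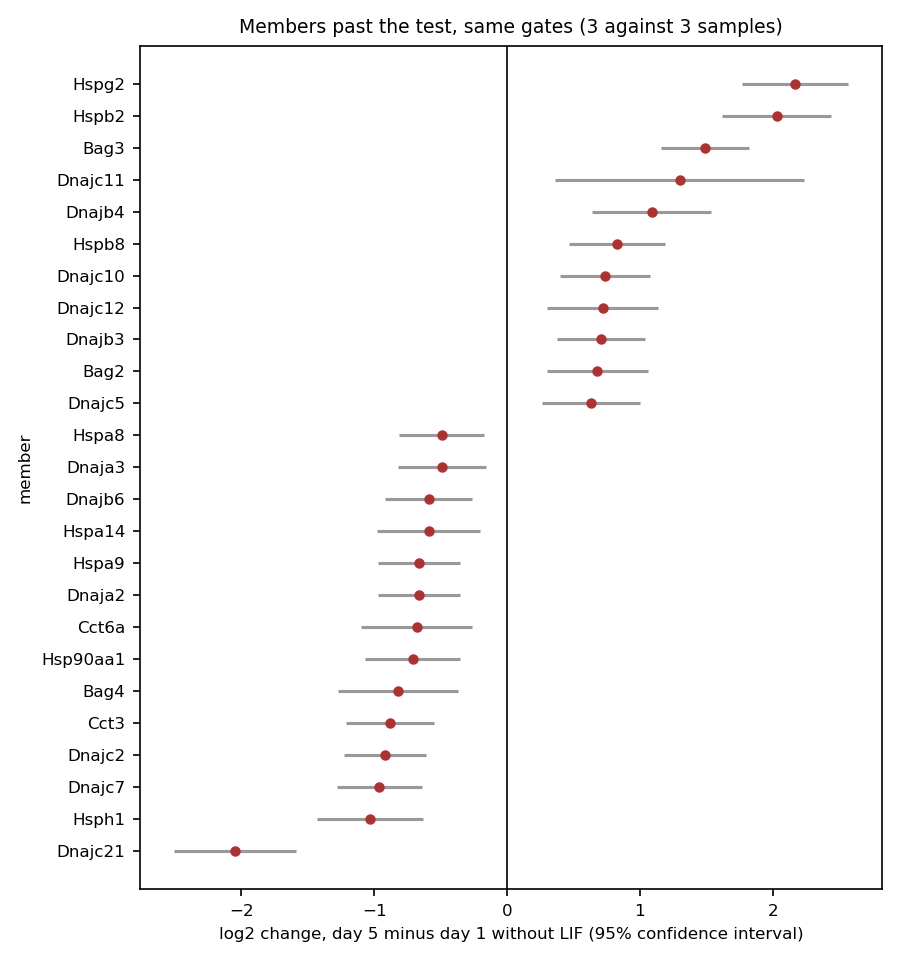
The log2 difference between day 5 and day 1 without LIF in the same gates (3 against 3 samples, 1 scan day) with its 95% confidence interval, for the 25 members past the test, in order of size. Hspg2 at 2.17 and Hspb2 at 2.03 are highest and Dnajc21 at -2.05 is lowest, and the value of Dnajb3 is set against day 1 signals below the level of the brightness filter.

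The count of 25 called members in this comparison depended on each library, since leaving out a sample leaves 2 gates with both days. It was 14 without the high library of day 1 or day 5, 10 without the medium library of either, and 15 without the low library of either. Hspb2, Hspb8, Bag3, Hspg2, Cct3, Hsph1, Dnajc2, Dnajc7 and Dnajc21 passed in all 6 such fits.

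A promoter window of 250 bases before and 50 after each start, from RefSeq (GRCm38.p6), was on hand for 68 of the 83 members. It was searched for a heat shock element of 3 units, GAANNTTCNNGAA or TTCNNGAANNTTC, on both strands. Of all 32851 promoters 0.603% hold it, and among the members it was found in those of Hspd1, Hspe1, Dnajb6 and Hsph1. Hspd1 and Hspe1 lie head to head, and their windows overlap and hold the same stretch. The windows are shown because Hsph1 and Dnajb6 are 2 of the members that fell between day 1 and day 5, with the element in capitals. Counting the start as base 0, it lies at -89 to -72 in Hspe1 (as 2 overlapping matches), at -46 to -34 in Dnajb6 and at 36 to 48 in Hsph1, each for the start whose window is shown. From the second start that the table lists for these genes, it lies at -127 to -115 in Dnajb6 and at 15 to 27 in Hsph1.
Hspe1 (chr1:55087898-55088197, plus strand): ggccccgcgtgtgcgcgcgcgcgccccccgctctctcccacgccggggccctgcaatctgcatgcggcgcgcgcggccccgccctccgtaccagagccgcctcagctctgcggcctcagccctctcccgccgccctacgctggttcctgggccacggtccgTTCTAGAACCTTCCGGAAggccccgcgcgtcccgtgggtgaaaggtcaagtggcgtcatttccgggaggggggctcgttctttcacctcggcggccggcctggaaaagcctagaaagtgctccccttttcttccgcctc
Dnajb6 (chr5:29735648-29735947, plus strand): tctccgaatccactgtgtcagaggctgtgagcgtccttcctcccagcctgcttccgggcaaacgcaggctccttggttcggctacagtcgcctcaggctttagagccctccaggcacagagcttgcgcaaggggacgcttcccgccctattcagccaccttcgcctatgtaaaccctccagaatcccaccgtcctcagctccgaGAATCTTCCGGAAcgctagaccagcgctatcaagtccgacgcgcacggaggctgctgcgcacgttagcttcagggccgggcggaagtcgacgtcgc
Hsph1 (chr5:149636287-149636586, minus strand): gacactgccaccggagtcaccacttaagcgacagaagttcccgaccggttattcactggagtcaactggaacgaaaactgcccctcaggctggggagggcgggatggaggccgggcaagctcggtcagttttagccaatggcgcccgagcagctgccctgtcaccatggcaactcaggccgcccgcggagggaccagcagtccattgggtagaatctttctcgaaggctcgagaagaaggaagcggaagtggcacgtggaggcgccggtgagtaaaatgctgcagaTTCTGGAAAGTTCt
A match is a description of letters and not of binding. Hspb8 and Bag3, which rose at day 5, have windows without these letters, and no match was found for any other member that fell between day 1 and day 5. Hspb2, Hspa8 and Hsp90aa1 have no window, and Hspd1 and Hspe1, which hold the element, were not called. Whether the element goes with a change was not tested.

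Markers of other cells moved with the day 5 results. Of 9 tested fibroblast markers 7 were higher than control at day 5, and the summed signal of the 16 markers was 3729 to 4095 beside 1244 to 1438 in control. Dcn, a defining marker of fibroblasts, was below the filter's level in each control and at least 5.74-fold higher at day 5. Thy1, another of the tested markers, went the other way, with 19.3, 27.9 and 11.6 at day 5 and 41.2, 61 and 55.9 in control. None of the 9 was called lower than control. Lum, Postn, Col3a1 and Vim were among the 7 markers below the brightness filter. Of 5 tested trophoblast markers 4 were higher at day 5 (Krt8, Krt18, Eomes and Hand1), Tfap2c was not called, and Cdx2, Elf5 and Gata3 were below the filter. The summed signal of these 8 was 4423 to 4900 at day 5 and 736 to 1022 in control, and the keratins Krt8 and Krt18 made 77.4% to 82.3% of it at day 5. Such sums add probe sets of unlike brightness and are led by the brightest. Of 15 genes of dissociation and sorting stress, 9 were higher and 2 lower than control at day 5. Of all probe sets, 15.4% were higher and 13.8% lower there. Markers of undifferentiated cells fell in 9 of 10 cases, from a sum of 19397 to 23226 in control to 3818 to 4071. The part of these in the chaperone results was not tested.

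Other protein folding genes outside the name rule were followed by a list of 46, of which 43 were on the arrays and 40 were tested. At day 5, 5 were higher and 16 lower than control, beside 15.4% of all probe sets higher and 13.8% lower. Against day 1, 5 were higher and 17 lower, beside 15.3% and 12.6%. Serpinh1, the collagen chaperone of the endoplasmic reticulum, was 2.88 higher than control on the log2 scale (SE 0.43, adjusted p = 0.000161). Ppid, a cyclophilin that binds Hsp90, fell by 0.93 (adjusted p = 0.000827). Herpud1 and Xbp1, genes of the unfolded protein response, fell by 1.15 (adjusted p = 1.24e-05) and 1.08 (adjusted p = 0.000382). Herpud1 had signals of 41.5, 41.1 and 42.2 at day 5, where its lowest value in any other sample was 84.2.

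With RA, Dnajc3 and Dnajb11 of the endoplasmic reticulum were higher than control at both times, Hspa13 and Hsp90b1 were higher at day 2, and Hspb8 was lower at both. At day 2 with RA, 4 of the 8 tested members assigned to that compartment (50%) were higher than control and none lower, beside 8.05% and 7.17% of all probe sets. At day 1 with RA 2 (25%) were higher and none lower, beside 10.7% and 8.85%. Against day 1 without LIF, with all libraries, 0 of these 8 were called at day 1 with RA. Of all probe sets 3.24% were higher and 3.28% lower in that comparison. In the mitochondria 1 of 7 (14.3%) was higher and 2 (28.6%) lower at day 2 with RA. The higher one was Dnajc11, which passed the filter through its brighter arms. The members not assigned to either gave 5 higher (8.47%) and 4 lower (6.78%) among 59, near the shares of all probe sets. The compartments were assigned after values had been seen, and the counts are a description. These 59, Dnajc14 among them, may hold further members of the endoplasmic reticulum, so the share of 50% depends on the assignment.

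Dnajc3, an inhibitor of the kinases that halt translation under stress and a cochaperone of Hspa5, had signals of 96.9, 102 and 67.1 at day 1 with RA and 86.7 and 90.1 at day 2. In control they were 34.9, 58.5 and 40.7, and in the 3 undoubted day 1 libraries without LIF 39.9, 33.9 and 45.6. RA samples did not overlap with either, the second day 1 high library had 91.1, and day 3 without LIF was also high (75.1, 71.4 and 82.7) while day 5 was not (41, 51.9 and 45.8). Against control the log2 difference was 1.00 (SE 0.29, adjusted p = 0.0216) at day 1 and 1.07 (SE 0.33, adjusted p = 0.0375) at day 2. Of 2 further Dnajc3 probe sets, 1 rose more (1.95 and 1.53) and 1 gave 0.10 and 0.02.

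Hspa13, a small Hsp70 relative attached to microsomes, had signals of 577 and 508 at day 2 with RA and 330.1, 258 and 262 in control. The RA values lay above all other samples, and the difference was 1.08 (SE 0.30, adjusted p = 0.0349), with 0.77 in a second probe set that also passed. Hsp90b1, the Hsp90 of the endoplasmic reticulum, had 2633 and 2811 at day 2 with RA against 1953, 1871 and 2089 (0.42, SE 0.13, adjusted p = 0.035). At day 1 with RA it was still at 1956, 1988 and 1942. Dnajb11, a J protein that serves Hspa5, had 282, 322 and 315 at day 1 with RA against 219, 196 and 179 (0.66, SE 0.15, adjusted p = 0.00792). Without LIF it had 240 to 259 at day 1 and 250 to 298 at day 3, also above every control. Hspa5, the Hsp70 of this compartment, had 1906 and 1683 at day 2 against 1401, 1183 and 1310.3, which is above every control but did not pass (0.45, SE 0.18, adjusted p = 0.103). The 4 day 1 libraries without LIF had Hspa5 signals of 1538 to 1948, also above every control.

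**Figure D4:**
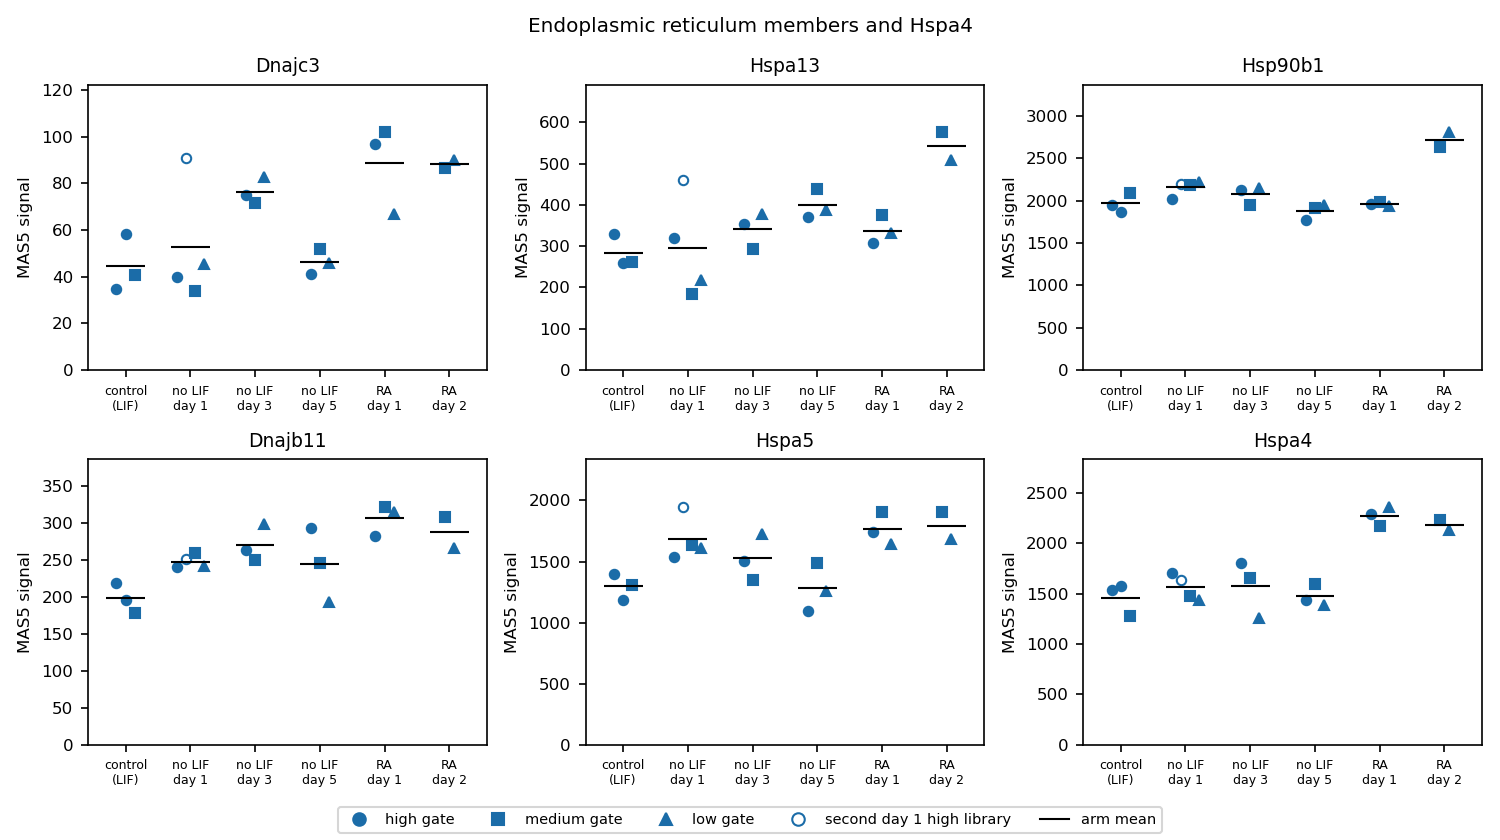
MAS5 signal (linear, from 0) in each of the 18 samples for 5 members of the endoplasmic reticulum and for Hspa4, by arm, with gates as symbols and the arm mean as a line; the open circle is the second day 1 high library. Both RA arms lie above control for Dnajc3, Dnajb11, Hspa5 and Hspa4, and Hspa13 and Hsp90b1 are highest at day 2 with RA. The day 1 arm without LIF also lies above control for Dnajb11 and Hspa5, and day 3 without LIF for Dnajc3 and Dnajb11.

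Promoters of 3 members hold the ER stress element, the pair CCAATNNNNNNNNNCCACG or its reverse complement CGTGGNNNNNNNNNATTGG, which 0.119% of all promoters in the table hold. They are those of Hspa5, Hsp90b1 and Dnajc3, shown here because Hsp90b1 and Dnajc3 are among the members higher with RA. Hspa13 and Dnajb11, also higher with RA, are not among the holders, and Hspa5 was not called. Capitals mark the element, which Hsp90b1 holds 2 times.
Hspa5 (chr2:34771840-34772139, plus strand): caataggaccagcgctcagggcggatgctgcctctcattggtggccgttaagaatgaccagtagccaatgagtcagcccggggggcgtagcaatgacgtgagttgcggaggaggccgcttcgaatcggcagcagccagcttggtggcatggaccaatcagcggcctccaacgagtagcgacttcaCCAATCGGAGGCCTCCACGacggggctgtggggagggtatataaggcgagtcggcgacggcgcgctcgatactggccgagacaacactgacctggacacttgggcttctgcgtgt
Hsp90b1 (chr10:86705395-86705694, minus strand): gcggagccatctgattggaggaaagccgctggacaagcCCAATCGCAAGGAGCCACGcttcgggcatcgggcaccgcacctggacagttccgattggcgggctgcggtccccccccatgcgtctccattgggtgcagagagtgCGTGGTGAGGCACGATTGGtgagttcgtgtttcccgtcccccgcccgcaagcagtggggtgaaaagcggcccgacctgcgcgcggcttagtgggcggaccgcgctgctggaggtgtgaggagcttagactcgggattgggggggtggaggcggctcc
Dnajc3 (chr14:118937682-118937981, plus strand): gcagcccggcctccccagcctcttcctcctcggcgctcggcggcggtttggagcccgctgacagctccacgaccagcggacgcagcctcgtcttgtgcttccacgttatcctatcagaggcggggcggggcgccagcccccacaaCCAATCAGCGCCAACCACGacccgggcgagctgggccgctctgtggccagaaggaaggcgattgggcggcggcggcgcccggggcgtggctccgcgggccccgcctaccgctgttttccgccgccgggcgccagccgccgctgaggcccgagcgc
With the start as base 0, the element lies at -65 to -47 in Hspa5, at -105 to -87 in Dnajc3 and within -212 to -89 in Hsp90b1.

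Of the other members that were higher with RA, Hspa4, an Hsp110 relative, had signals of 2288, 2173 and 2361 at day 1 and 2229 and 2133 at day 2, above 1530.2, 1571 and 1277 in control. RA samples stood above each of the 13 samples without RA. The difference from control was 0.71 at both times (SE 0.14, adjusted p = 0.00228 at day 1, and SE 0.16, adjusted p = 0.0067 at day 2). The 4 further tested probe sets of Hspa4 did not follow, with values of -0.04, -0.30, -0.41 and -0.29 at day 1. Dnaja1, a major Hsp70 partner, was higher than control in 4 arms, by 0.64 at day 1 and 0.72 at day 5 without LIF and by 0.68 and 0.83 at days 1 and 2 with RA. Its signals were 413, 363 and 440.1 in control and 467 or more in all other samples. The calls of Dnaja1 at day 5 and at day 2 with RA were lost with scan day as a fixed block.

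Hspb8 moved with RA in the direction opposite to that at day 5. Its signals were 85.6, 94.5 and 71.6 at day 1 with RA and 85.7 and 117 at day 2, below 139, 197 and 162 in control. The log2 difference was -0.97 (SE 0.20, adjusted p = 0.00336) at day 1 and -0.74 (SE 0.23, adjusted p = 0.0374) at day 2. Hspb2 fell by 0.73 (SE 0.19, adjusted p = 0.0126) and Hspb6 by 0.53 (SE 0.15, adjusted p = 0.0246) at day 1 with RA. Dnajb4 (-0.86) and Hspbp1 (-0.73), a nucleotide exchange factor of Hsp70, also were lower at day 1 with RA. A random block for scan day left 5 of the 15 members called at day 1 with RA (Hspb8, Hspa14, Dnajc4, Dnajb3 and Dnajc11), so that Dnajc3, Dnajb11 and Hspa4 were not called there.

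The count of 16 at day 2 with RA rests on few libraries. It was 3 without either RA day 2 library, 5 without the control medium library, 9 without the first control high library and 10 without the low day 1 library. Hsp90b1, Dnajb11 and Hspa4 were not called at day 2 with scan day as a fixed block. The count of 15 at day 1 with RA was 8 without the control medium library and 8 without the RA day 1 medium library. The summed signal of 13 markers of extraembryonic endoderm was 2346 to 4295 at day 2 with RA and 1165 to 1286 in control. Without LIF it was 1305 to 2642 at day 3 and 2016 to 2558 at day 5. The sum of the 16 fibroblast markers was 2942 to 4160 at day 2 with RA, beside 3729 to 4095 at day 5 without LIF. The part of these sums in the results was not tested.

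Because day 2 with RA shares its scan day with day 5 and with 3 day 1 libraries without LIF, these arms were compared within that day. This comparison was added after the data had been seen. Against day 5, 2 members were higher with RA (Dnajc3 and Dnajc7) and 3 lower (Hspb2, Hspb8 and Bag3), beside 3.26% of all probe sets higher and 3.8% lower. The values were 0.85 (SE 0.18, adjusted p = 0.0288) for Dnajc3, 0.77 (SE 0.15, adjusted p = 0.0215) for Dnajc7, -2.05 (SE 0.21, adjusted p = 0.00176) for Hspb2, -1.22 (SE 0.19, adjusted p = 0.00821) for Hspb8 and -0.90 (SE 0.15, adjusted p = 0.0117) for Bag3. In the list of other folding genes, 6 were higher with RA than at day 5 and 1 lower, with Herpud1 (1.54), Xbp1 (1.10) and Atf4 (1.01) among the higher and Cryab (-1.43) the lower. Median centring gave 4 members higher and 3 lower. The count of 5 members fell to 1 without the day 5 or RA day 2 medium library and to 2 without the low library of either.

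Against the day 1 libraries without LIF of that scan day, 8 members were higher at day 2 with RA and 2 lower, beside 7.26% and 5.25% of all probe sets. The higher ones were Hspg2 (2.06), Hspa13 (1.27), Hspa4l (1.17), Dnajc3 (1.05), Bag2 (0.71), Dnajc10 (0.70), Bag3 (0.59) and Dnajb3 (at least 1.57-fold), and the lower ones Hspa14 (-0.73) and Dnaja3 (-0.55). So 3 of the 8 higher members belong to the endoplasmic reticulum. Median centring gave 6 higher and 4 lower. The count of 10 fell to 1 without the low and to 2 without the medium library of day 2 with RA, to 3 without the medium and 5 without the low day 1 library, and to 4 without the medium and 6 without the low day 5 library, which shares the estimate of the spread.

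Day 1 with RA was compared with day 1 without LIF to ask what RA adds to the loss of LIF. With all libraries 3 members were higher (Hspg2 at 1.69, Hspa4 at 0.57 and Dnajb3) and none lower, beside 3.24% and 3.28% of all probe sets, and quantile normalization gave 4 higher and 1 lower. Dnajb3 had signals of 37.2, 35.3 and 40.4 with RA, and of its day 1 signals (22.4, 32.6, 19.5 and 10.3) only the second high library was above the filter's level. Without the second day 1 high library 7 were higher and 6 lower, beside 17.3% called in either direction. The members gained included Dnajc3 (1.07), Dnajc5 (0.61) and Bag2 (0.48) among the higher, and Hspbp1 (-0.71), Hspb8 (-0.68), Hsph1 (-0.61), Hspa14 (-0.56) and Cct4 (-0.48) among the lower. The count was 1 without the day 1 medium or low library or the RA day 1 medium or low library. The arms were scanned on different days, and a random block for scan day left no member called with all libraries.

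Day 1 with RA and day 3 without LIF share a scan day, and 1 member was called between them. It was Dnajc11, with signals of 54.3, 71.5 and 97.7 with RA and 21.9, 27 and 23.8 at day 3. The day 3 values lie at the level of the filter, so the fitted difference of 1.44 is not exact. Of all probe sets 0.805% were higher and 0.839% lower. No member was called without the low library of either arm. For Dnajc3 both arms had high signals, as given above.

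In the first days without LIF few members were called. At day 1 Dnaja1 had signals of 629, 578, 731 and 679.5 (high 1, high 2, medium, low) and was higher than control (adjusted p = 0.0343), and Dnajc4 was lower (54, 71, 61.3 and 58.2 against 82.4, 92.4 and 93.8, log2 difference -0.52, adjusted p = 0.0421). At day 3 Hspa1b had signals of 88.8, 127 and 109, above the control values of 56, 74 and 63.1 (0.69, SE 0.17, adjusted p = 0.0174). Hspa2, an Hsp70 best known from germ cells, had 183, 171 and 171 against 97.6, 138 and 106 (0.64, SE 0.16, adjusted p = 0.0258). Neither was called at day 5. The 2 calls at day 1 and the 6 at day 3 were all lost with scan day as a random block. The day 1 count was 0 without any 1 of the 3 controls, the medium or low library of day 1, the low library of day 5 or either library of day 2 with RA, and 1 without the first day 1 high, the high or medium library of day 3, the medium library of day 5 or any library of day 1 with RA. The day 3 count was 1 without the first control high library, 2 without the control medium or the day 3 medium or low library, 3 without the day 3 high library and 10 without the second day 1 high library.

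Hspg2, which encodes perlecan, was the member outside the chaperones that moved most. It had signals of 220.1, 190.1 and 203 at day 5, 35.5, 41.1 and 51.7 in the matched day 1 libraries and 57.1, 108 and 44.1 in control. Both RA arms were also high, at 141, 223 and 178 and at 165 and 224. The log2 difference between day 5 and day 1 was 2.17 (SE 0.16, adjusted p = 0.000606).

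Across the Oct4:eGFP gates no member was called, and 0% of all probe sets were called between low and high or between medium and high. The count of members at an unadjusted p under 0.05 was 4 for low against high and 2 for medium against high, of 74. The smallest adjusted p of a member was 0.796 and 0.922. The gates at day 5 had close signals in Dnajc2 (635, 638 and 631) and Hspb2 (592, 572 and 603).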

How the data were processed

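Messenger RNA of 18 samples was measured on MG_U74Av2 (chip A) and MG_U74Bv2 (chip B) arrays. The deposited intensities are probe set signals. The submitters' processing notes name MAS5 as the authors' tool (version not given in the sources used here). They are linear and already scaled, with trimmed means of 150.1 (chip A) and 150.04 (chip B). Groups were read from the labels.

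Values were log2 transformed after adding 4 (chip A) or 7 (chip B). The brightest 60% of probe sets per chip were tested (7453 and 7447) with limma 3.58.1 in R 4.3.3, with additive terms for arm and gate over 18 samples, and p-values were adjusted by Benjamini-Hochberg within each chip. Same-gate comparisons used their own 6 samples and the comparison within 1 scan day its 8. Log2 differences are on the log2(signal + pseudocount) scale, which understates changes of dim probe sets. The fit was tested on simulated data.

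All 83 symbols matched a current RefSeq symbol. Members, gene lists and comparisons were chosen with earlier results of these data known. Values per sample are given for up to 8 members with the smallest adjusted p per comparison, and for others chosen after their values were seen. Alternatives were pseudocounts of 1 and 16, no filter or the brightest 40%, quantile normalization, median centring, taking chip A before chip B, leaving out each sample, scan day as a random or fixed block, dropping the gate or arm term, and a replicate block. The same-number samples of control and day 1 high share a number, and the second of each also a scan day. With 2 such pairs, the number was not taken as a pairing.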

Additional observations from a re-analysis of the deposited data

Results flagged for a closer look

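In the 4 libraries of day 1 without LIF, a single sample lay far from the other 3 in 4 of the 74 tested members. Chance flags about 1 in 20 such groups, so 4 of 74 is near the count that chance alone gives. For Hspa14 the second high library had a signal of 281.5 and the others 382.2 to 396.5. For Dnajb6 it had 995.1 and the others 1629.1 to 1792.9. For Cct7 it had 2425.5 and the others 2949.1 to 3062.2. This is the library that stood apart from its arm in the markers of undifferentiated cells, and a count of flags near chance adds nothing to that. For Hsf2 it was the first high library that stood apart, with 248.7 against 160.7 to 171.6.

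The arms with the longest exposure differed by a direct test within their shared scan day. The log2 difference of day 2 with RA minus day 5 without LIF was -2.05 for Hspb2, -1.22 for Hspb8, -0.90 for Bag3, 0.77 for Dnajc7 and 0.85 for Dnajc3, with 2 against 3 samples. These 5 are the members called in that test, where 3.26% of all probe sets were higher and 3.8% lower.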

How the results depend on the processing

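Counts of called members with 1 library left out ranged from 0 to 3 at day 1, 1 to 10 at day 3 and 17 to 28 at day 5 without LIF, and from 8 to 19 at day 1 and 3 to 18 at day 2 with RA, all against control. The ranges were 1 to 13 for day 1 with RA against day 1 without LIF, 10 to 15 for day 5 against day 1, 0 to 1 for day 1 with RA against day 3, 1 to 8 and 1 to 6 for day 2 with RA against day 1 and day 5 in 1 scan day, 0 to 1 for the high gate alone, and 0 for both gate comparisons. A lone remaining sample was assumed to vary like the other groups. Without a filter the counts were 0 at day 1, 3 at day 3, 9 at day 2 with RA, 13 for day 5 against day 1, 0 for day 1 with RA against day 3, and 3 for each comparison within a scan day. With the brightest 40% they were 1 at day 1, 4 for day 1 with RA against day 3 and 10 for day 2 with RA against day 5, where a pseudocount of 16 gave 8. Quantile normalization gave 5 for day 1 with RA against day 1. Scan day as a random block gave 0 at days 1 and 3, 5 at day 1 with RA and 0 for day 1 with RA against day 1, and as a fixed block 1 at day 1. With that random block and without the second day 1 high library, an alternative added after seeing the data, day 1 gave 0 and day 3 gave 3. With all 4 day 1 libraries, also added after seeing the data, day 5 against day 1 gave 11. Hspb8 at day 5 against control turned to -0.10 with scan day as a fixed block. The causes were not tested. Of the values of single called members under all alternatives, 1844 kept direction and call, 475 kept direction only and 1 changed sign. In the high gate alone, control and day 1 differed in 0 members with and without a replicate block, with 1 member at an unadjusted p under 0.05. Scan days hold few groups together, and each arm has at most 4 samples.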
